A study of Homo sapiens with 3 samples.

Results

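The genes described here code for the selenium carrier SELENOP, the glutathione peroxidases GPX1, GPX2, GPX3 and GPX4, and AIFM2, SLC7A11, ACSL4, FTH1 and TFRC, which act on lipid peroxides, cystine, membrane lipids and iron. They were chosen by name, with earlier results of the same arrays known, and every probe set that the platform annotation assigns to one of them alone was taken. That gave 22 of 54613 probe sets, covering 9 of the 10 genes. FTH1 was not analysed here, as no probe set met that rule for it in the annotation used. The levels and differences below are therefore a description, and none of them was tested.

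The study used PANC-1, a long-established cell line from a human ductal carcinoma of the pancreas, in 3 stable derivatives with 1 Affymetrix array each. The first line expressed a mutant JMJD3, the second wild-type JMJD3, and the third, the control, carried only the blank MSCV retroviral vector, and none had further treatment. JMJD3, the product of KDM6B, is a histone demethylase. The labels give neither the mutation nor whether a line is a clone or a pool. With no replicates, no difference below can be set against a spread between cultures, and precision is limited by how few arrays there are. In such lysates, fewer cells that express a gene and less of its RNA in each cell cannot be told apart.

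Ferroptosis is a form of cell death in which iron drives the peroxidation of polyunsaturated membrane lipids. GPX4, an enzyme with a selenocysteine in its active site, reduces lipid hydroperoxides at the expense of glutathione, whose cysteine comes largely from cystine imported by SLC7A11. AIFM2, also called FSP1, works beside GPX4 by regenerating reduced coenzyme Q in membranes. ACSL4 activates the polyunsaturated fatty acids that become peroxidised, TFRC brings in transferrin-bound iron, and the ferritin heavy chain FTH1 stores it. SELENOP, secreted mostly by the liver, carries selenium to other tissues as selenocysteine.

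The 3 arrays had median log2 signals of 5.49 with mutant JMJD3, 5.48 with wild-type JMJD3 and 5.50 in control. Signals were floored at log2 5.48, the pooled median of all arrays, and a gene was measured in a comparison if at least 1 of its arrays lay over that floor. A gene was represented by the probe set with the highest mean signal. Differences are in log2 units, and a difference of 1 is 2-fold. Of 5 KDM6B probe sets, 1556067_a_at read 6.45 with mutant JMJD3, 6.73 with wild-type JMJD3 and 5.53 in control, while 41387_r_at read 7.65, 7.66 and 7.60 in the same order. Against control 1556066_at differed by 0.49 with mutant and 0.73 with wild-type JMJD3 and 41386_i_at by -0.11 and 0.00, and 213146_at read 5.12 in every array. All 6 markers listed for PANC-1 (KRT8, KRT18, KRT19, KRT7, EPCAM and VIM) were over the floor in each array, but not at even levels. KRT19 read 5.55 in control, just over the floor, and was higher by 2.18 with mutant and 2.45 with wild-type JMJD3. Against control KRT8 also differed by -1.09 with mutant JMJD3 and KRT7 by 1.14 with wild-type JMJD3. For mutant against wild-type JMJD3, KRT7 (-1.64), KRT8 (-1.3) and EPCAM (1.24) passed 2-fold, and KRT18, KRT19 and VIM did not. Of the leukocyte markers with a probe set 0 of 4 were over the floor, as were 0 of 4 acinar and islet markers. Of 6 fibroblast markers 3 were over the floor in each array and COL1A2, COL3A1 and LUM were not. The 6 fibroblast markers had summed log2 levels of 34.64 with mutant JMJD3, 36.48 with wild-type JMJD3 and 34.72 in control. Their part in the results below was not tested.

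Of the 9 genes, 7 were over the floor in at least 1 array. Against control, the mutant JMJD3 array was 2-fold or more higher for 2 of these 7, SELENOP and ACSL4, and lower for 1, AIFM2. Among all 12707 genes measured in that comparison 2.98% were 2-fold higher and 0.535% were 2-fold lower. With wild-type JMJD3 against control, 0 of the 7 were 2-fold higher and 1, SELENOP, was 2-fold lower, where 0.953% and 1.31% of 12697 measured genes were higher and lower. The mutant array set against the wild-type array had the same 2 genes higher and AIFM2 lower, beside 6.2% and 2.61% of 12829 measured genes. The members were picked with these differences known, so their counts show nothing beyond the values themselves. The comparisons also share arrays and are not independent of each other.

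**Figure D1:**
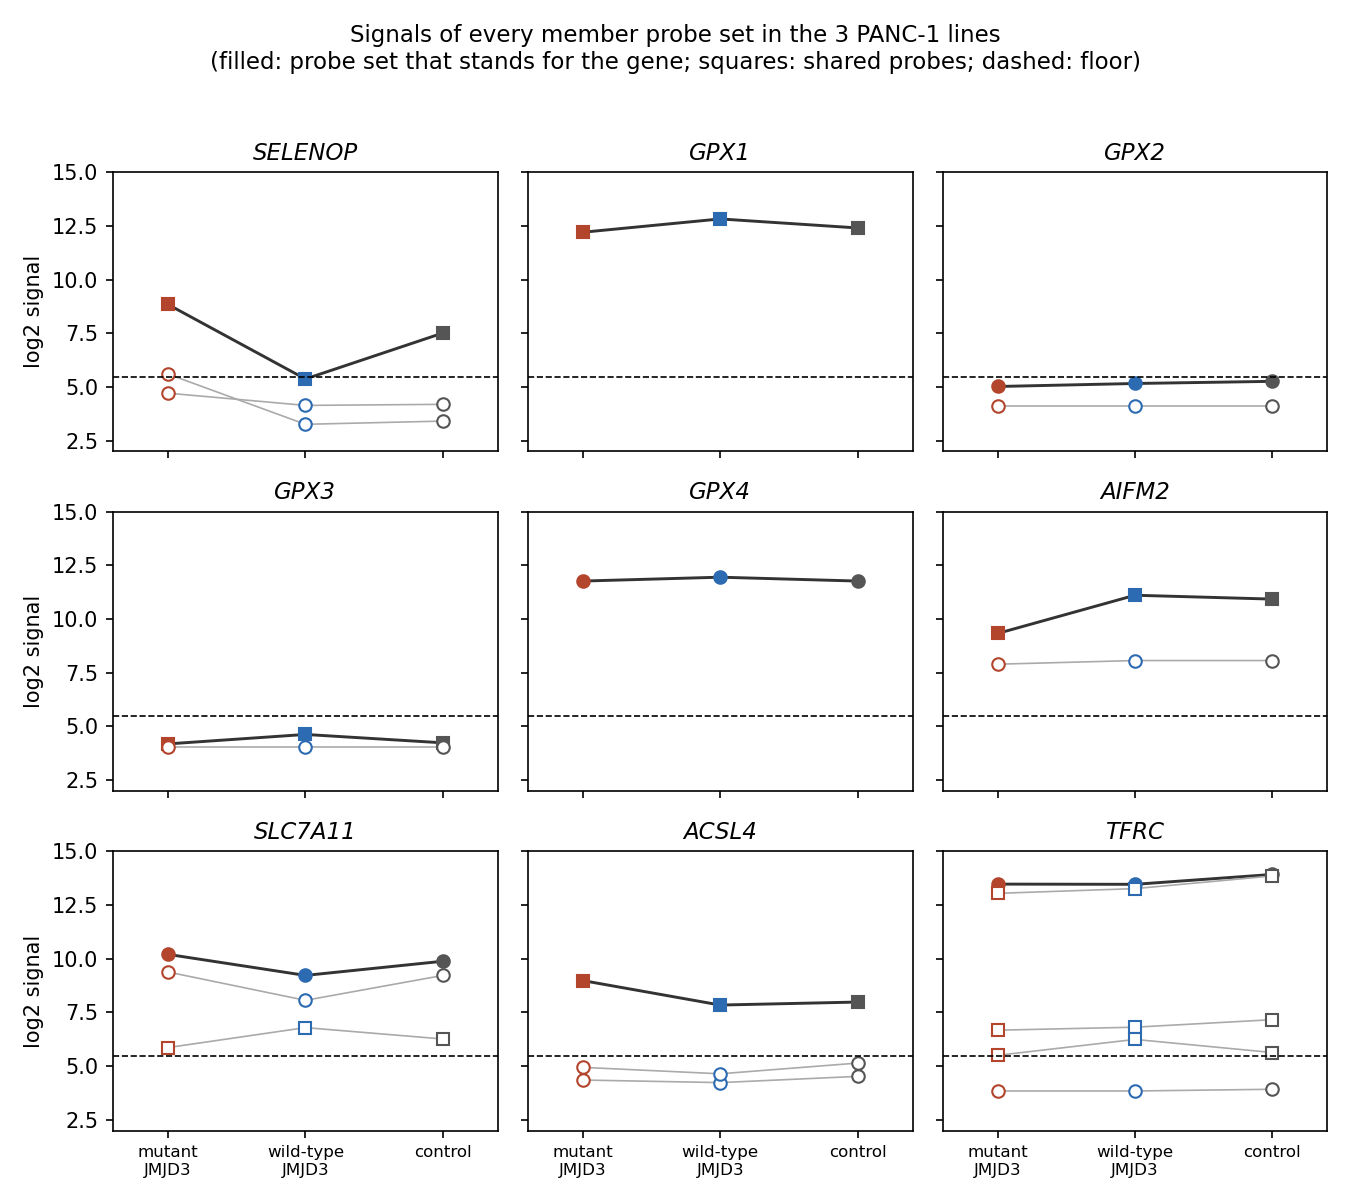
Log2 signal (vertical axis) of all 22 probe sets of the 9 genes in the mutant JMJD3, wild-type JMJD3 and control arrays (horizontal axis), with lines joining 1 probe set across arrays, filled symbols for the probe set that stands for its gene, squares for shared probes and a dashed line at the floor of 5.48. SELENOP spans 8.84 to 5.37, AIFM2 has its lowest signal with mutant JMJD3 (9.33), GPX2 and GPX3 stay under the floor, and GPX4 lies between 11.77 and 11.95.

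SELENOP, the selenium carrier, had the widest range over the 3 arrays among the 7. Its probe set 201427_s_at read 8.84 with mutant JMJD3, 5.37 with wild-type JMJD3 and 7.51 in control. The signal was highest in the mutant array, and in the wild-type array it lay under the floor. The mutant array was 2.51-fold higher than control (1.33) and at least 10.3-fold higher than the wild-type array (at least 3.36). Wild-type JMJD3 was at least 4.08-fold lower than control. In the mutant against wild-type comparison SELENOP ranked 1 of 12829 measured genes from the highest difference, and in the wild-type against control comparison it ranked 3 of 12697 from the lowest. Both ranks are of floored differences, which for SELENOP are bounds.

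The other SELENOP probe sets were dim. Probe set 229620_at read 5.60 with mutant JMJD3, just over the floor, 3.26 with wild-type JMJD3 and 3.41 in control. Probe set 231669_at read 4.71, 4.14 and 4.19 in the same order. In all 3 probe sets the deposited signal was highest with mutant JMJD3 and lowest with wild-type JMJD3, although the step between wild-type and control was 0.15 and 0.05 in the dim ones. The 2-fold calls rest on 201427_s_at, whose identifier marks probes shared with other transcripts. With the median over the 3 probe sets both other arrays lay under the floor. The mutant array was then higher by at least 0.12, a bound that does not reach 2-fold. Without shared probe sets SELENOP was represented by 231669_at, whose mean was the higher, and so was not measured. The unshared 229620_at by itself had the mutant array higher than both others by at least 0.12.

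Hepatocytes are the main source of SELENOP in the body, so their markers were read beside it. Of 7 hepatocyte markers 1 was over the floor, TTR, which read 6.43 in all 3 arrays. ALB read 3.54 with mutant JMJD3, 3.75 with wild-type JMJD3 and 3.54 in control. APOB read 3.9 in each array. The summed log2 level of the 7 markers was 32.00 with mutant JMJD3, 32.96 with wild-type JMJD3 and 32.48 in control. With 6 of the 7 under the floor that sum is mostly dim signal, and the part of these cells in the SELENOP values was not tested.

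AIFM2 stood opposite to SELENOP in the mutant array. Its probe set 224461_s_at read 9.33 with mutant JMJD3, 11.11 with wild-type JMJD3 and 10.93 in control. Only the mutant array was low. It was 3.03-fold lower than control (-1.60) and 3.43-fold lower than the wild-type array (-1.78), whereas wild-type JMJD3 was 1.13-fold higher than control. AIFM2 ranked 7 of 12707 from the lowest difference for mutant against control and 15 of 12829 for mutant against wild-type. Its other probe set, 228445_at, read 7.90 with mutant JMJD3, 8.07 with wild-type JMJD3 and 8.07 in control, a difference of -0.17 for the mutant array in both comparisons. The 2-fold difference in AIFM2 is thus seen in the probe set with shared probes and not in the other, and the mean of both gives -0.89 against control and -0.97 against wild-type.

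The promoters of SELENOP and AIFM2 are shown because these genes lay at opposite ends of the mutant against wild-type comparison. Each sequence is the 250 bases before the annotated start of the gene, from RefSeq on GRCh38.p14, read along the gene, with exact motif matches on either strand in capitals. For SELENOP it is chr5:42811893-42812142 and for AIFM2 chr10:70132826-70133075, both on the minus strand.
SELENOP: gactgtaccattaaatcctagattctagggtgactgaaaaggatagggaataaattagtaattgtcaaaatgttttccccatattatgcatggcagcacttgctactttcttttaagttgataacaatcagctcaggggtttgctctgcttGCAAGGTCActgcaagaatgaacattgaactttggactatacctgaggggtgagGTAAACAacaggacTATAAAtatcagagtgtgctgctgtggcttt
AIFM2: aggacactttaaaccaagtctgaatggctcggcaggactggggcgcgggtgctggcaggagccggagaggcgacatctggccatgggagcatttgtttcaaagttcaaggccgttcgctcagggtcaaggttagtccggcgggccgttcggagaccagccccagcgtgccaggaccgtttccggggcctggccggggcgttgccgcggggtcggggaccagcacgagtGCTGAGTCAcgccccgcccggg

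Motifs searched were the forkhead core GTAAACA, the antioxidant response element core TGACNNNGC, the AP-1 site TGAGTCA and the TATA box TATAAA. In SELENOP the capitals mark, from left to right, an antioxidant response element core on the opposite strand, a forkhead core 45 to 39 bases before the start and a TATA box 31 to 26 bases before it. In AIFM2 they mark 1 run, 22 to 14 bases before the start, where an antioxidant response element core on the opposite strand overlaps an AP-1 site. Of 35116 promoter entries of that length, 2.98% held the forkhead core, 10.9% the antioxidant response element core, 4.2% the AP-1 site and 10.7% the TATA box. The table held promoters of 8 of the 10 genes. Among the other 6, GPX2 had an antioxidant response element core and TFRC a TATA box. The AIFM2 promoter had a GC content of 66.8% and that of SELENOP 39.6%. A match is a run of letters and not evidence of binding in these lines.

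ACSL4, the enzyme that supplies peroxidation-prone lipids, was brightest in the mutant array. Probe set 202422_s_at read 8.98 with mutant JMJD3, 7.84 with wild-type JMJD3 and 7.98 in control. The wild-type array and control differed by -0.14, while the mutant array was 2.20-fold higher than wild-type (1.14). Against control the mutant array was at exactly 2-fold in the deposited decimals, and it fell below that with quantile normalization (0.95) or when an offset replaced the floor (0.89). The remaining ACSL4 probe sets, 1557418_at and 1557419_a_at, were under the floor in all arrays, with signals of 4.23 to 5.14, so the difference rests on a single probe set with shared probes.

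SLC7A11, the cystine importer, had 3 probe sets, and they did not go one way. Its brightest, 209921_at, read 10.20 with mutant JMJD3, 9.22 with wild-type JMJD3 and 9.88 in control. Probe set 217678_at read 9.38 with mutant JMJD3, 8.06 with wild-type JMJD3 and 9.22 in control. In both, the wild-type array was lowest. It was 1.58-fold lower than control in the first and 2.23-fold lower in the second, and the mutant array exceeded it 1.97-fold and 2.50-fold. Probe set 207528_s_at went the other way, with 5.86 for mutant JMJD3, 6.79 for wild-type JMJD3 and 6.26 in control, so that mutant was 1.91-fold lower than wild-type. Both unshared probe sets put the mutant array slightly over control, by 0.32 and 0.16.

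The glutathione peroxidases showed no 2-fold difference. GPX4 had 1 probe set, 201106_at, which read 11.77 with mutant JMJD3, 11.95 with wild-type JMJD3 and 11.77 in control. GPX1, the cytosolic peroxidase, read 12.20 with mutant JMJD3, 12.82 with wild-type JMJD3 and 12.40 in control. Both were highest in the wild-type array. In GPX1 the wild-type array exceeded control 1.34-fold, and the mutant array was 1.54-fold lower than the wild-type array. GPX2, the gastrointestinal form, and GPX3, the secreted plasma form, were under the floor in every array. The brighter GPX2 probe set read 5.02 with mutant JMJD3, 5.16 with wild-type JMJD3 and 5.26 in control, and the brighter GPX3 probe set 4.19, 4.63 and 4.24. The dimmer ones held 4.13 for GPX2 and 4.06 for GPX3 in all 3 arrays. Among all probe sets 21.0% held 1 value in all arrays, so an equal value does not show an equal transcript level.

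TFRC, the transferrin receptor, was lower in both JMJD3 lines than in control. Probe set 208691_at read 13.47 with mutant JMJD3, 13.46 with wild-type JMJD3 and 13.92 in control. The mutant array was 1.37-fold lower than control and the wild-type array 1.38-fold lower, and they differed from each other by 0.01. Probe sets 207332_s_at (-0.81 and -0.59 for mutant and wild-type JMJD3 against control) and 237215_s_at (-0.49 and -0.35) had the same order against control. Probe set 240686_x_at, near the floor, read 5.50 with mutant JMJD3, 6.24 with wild-type JMJD3 and 5.63 in control, and 237214_at was under it in every array. Neither JMJD3 line was 2-fold from control in any TFRC probe set.

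**Figure D2:**
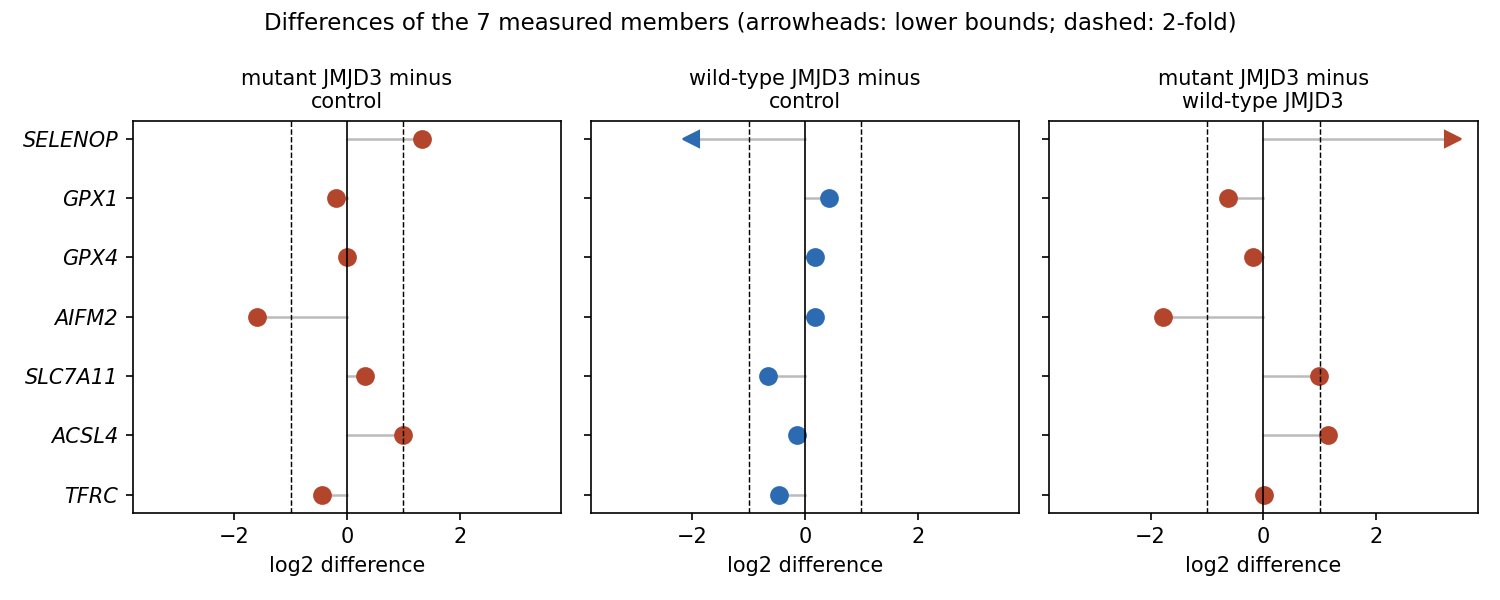
Log2 difference (horizontal axis) of the 7 measured genes (rows) in mutant JMJD3 minus control, wild-type JMJD3 minus control and mutant minus wild-type JMJD3, each from the probe set that stands for the gene. Arrowheads are lower bounds, where 1 array lay under the floor, and dashed lines mark 2-fold. SELENOP reaches at least 3.36 and AIFM2 -1.78 in mutant minus wild-type, where SLC7A11 stands at 0.98 and ACSL4 at 1.14, and TFRC at 0.01.

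The genes whose pattern over the 3 arrays came closest to that of SELENOP were found by Euclidean distance between floored log2 values, each gene centred on its own mean, among 12866 other genes. They were KCTD12 (distance 0.488), the complement component C5 (0.648), the sterol exporter ABCA1 (0.698), the small GTPase ARL6 (0.709) and C9orf85 (0.724). KCTD12 read 9.36 with mutant JMJD3, 6.33 with wild-type JMJD3 and 7.67 in control. All 5 were highest with mutant and lowest with wild-type JMJD3, as genes picked for this pattern would be. With wild-type JMJD3, C5 (4.52), ABCA1 (4.79) and ARL6 (5.40) were, like SELENOP, under the floor. Their differences from that array are therefore bounds. For AIFM2 the nearest genes were closer, with distances of 0.176 to 0.253. They were the aldolase ALDOC, the somatostatin receptor SSTR1, the mucin MUC12, the drug efflux pump ABCB1 and the LIM protein AJUBA. ALDOC read 7.61 with mutant JMJD3, 9.18 with wild-type JMJD3 and 9.22 in control. Likeness over 3 arrays is a weak measure and describes only these values.

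**Figure D3:**
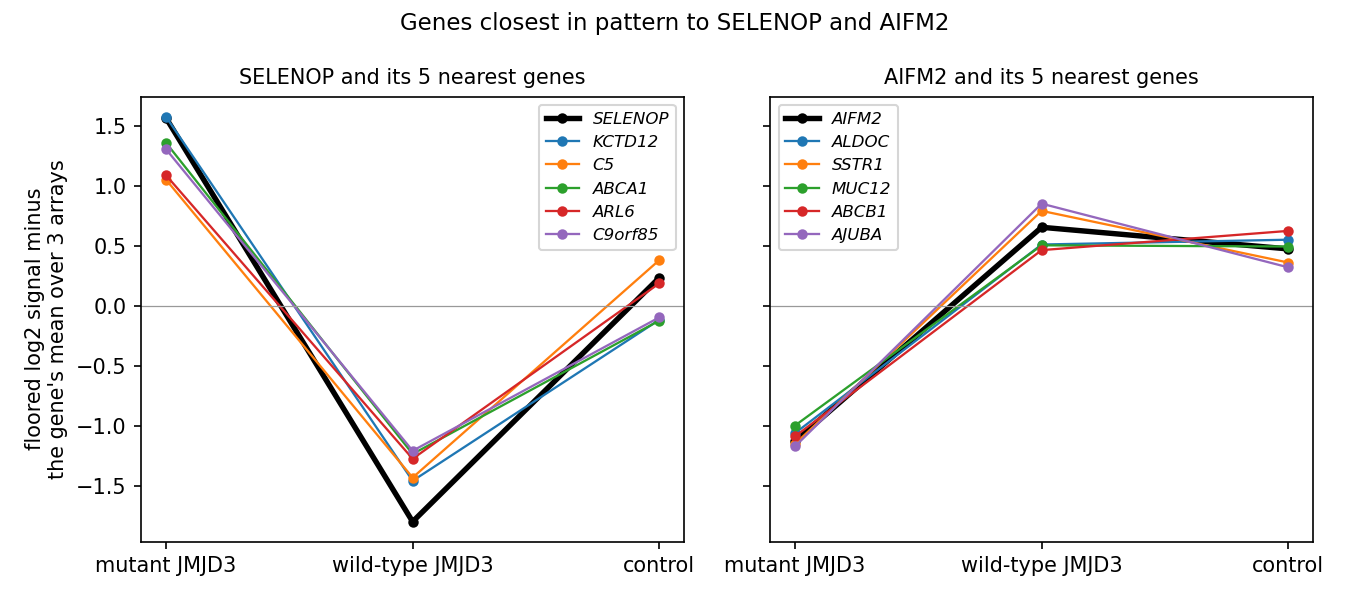
Floored log2 signal minus the gene's own mean over the 3 arrays (vertical axis) in the mutant JMJD3, wild-type JMJD3 and control arrays, for SELENOP with its 5 nearest genes (left) and AIFM2 with its 5 nearest genes (right). The genes near SELENOP are highest with mutant and lowest with wild-type JMJD3, and those near AIFM2 are low only with mutant JMJD3.

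Around SELENOP and the peroxidases, 16 of 20 other listed selenoprotein genes were measured. With mutant JMJD3 against wild-type JMJD3, 3 were higher, 12 lower and 1 equal, with a median of -0.135, while over all measured genes 40.5% were higher, 49.7% lower and the median was 0.00. Of the 16, 0 were 2-fold higher and 2 were 2-fold lower, beside 6.2% and 2.61% of all measured genes. Those 2 were TXNRD2, the mitochondrial thioredoxin reductase, and MSRB1, a methionine sulfoxide reductase. TXNRD2 read 8.37 with mutant JMJD3, 9.53 with wild-type JMJD3 and 9.13 in control (2.23-fold lower in mutant than in wild-type, and -0.58 with the median of its probe sets). That difference rests on 211177_s_at, which has shared probes, as 210803_at was under the floor in every array. MSRB1 read 9.11 with mutant JMJD3, 10.22 with wild-type JMJD3 and 9.50 in control (2.16-fold lower). Against control the mutant array had 7 higher and 7 lower, around a median of 0.00, and the wild-type array had 12 higher and 4 lower, around 0.23, where 54.4% of all measured genes were higher, 34.3% lower and the median was 0.05. SELENOM, an endoplasmic reticulum selenoprotein, exceeded control 2.04-fold in the wild-type array, a difference of 1.03 that became 0.92 when an offset replaced the floor.

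Among 12 measured genes for selenium uptake and selenocysteine synthesis, SEPSECS, which forms selenocysteine on its transfer RNA, was the only 2-fold difference at a brightest probe set. It read 7.62 with mutant JMJD3, 6.22 with wild-type JMJD3 and 7.11 in control at its brightest probe set, so mutant exceeded wild-type 2.64-fold. Its other measured probe sets went the other way (-0.39 and -0.19). The median signal of all its probe sets in each array gave -0.39, a bound, as the mutant median lay under the floor. SECISBP2, which binds the selenocysteine insertion element, had the wild-type array lowest in both probe sets, with mutant over wild-type by 0.63 at the brightest and 1.21, past 2-fold, at the other. SEPHS1, a relative of the selenophosphate synthetase SEPHS2, differed by -0.52 for mutant against wild-type at its brightest probe set and by -1.15 at 208941_s_at. LRP8, a receptor that takes up SELENOP, at its brightest probe set read 8.27 with mutant JMJD3, 8.60 with wild-type JMJD3 and 8.73 in control. Its other probe sets were about as bright and had other orders. In the same order of arrays 228955_at read 8.59, 7.79 and 8.59, and 205282_at read 8.09, 8.35 and 7.99. The median of the list for mutant against wild-type was -0.105, and it turned to 0.04 without shared probe sets. At brightest probe sets, 1 of the 12 was 2-fold higher and 0 lower there, beside 6.2% and 2.61% of all measured genes.

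Genes of cystine uptake and glutathione synthesis were mostly lower with mutant than with wild-type JMJD3. Of 12 measured, 10 were lower and 2 higher, around a median of -0.47 (-0.28 when each gene was given the median of its probe sets). Over all measured genes 49.7% were lower and 40.5% higher, around 0.00. None of the 12 reached 2-fold at its brightest probe set, where 6.2% of all measured genes were 2-fold higher and 2.61% lower. SLC3A2 reached 2-fold lower with equal array medians, PGD with quantile normalization and GSS, at -1.01, with the median of its probe sets. SLC3A2, the heavy chain that partners SLC7A11, read 10.45 with mutant JMJD3, 11.44 with wild-type JMJD3 and 11.14 in control, a mutant minus wild-type difference of -0.99. The light chain SLC7A11 had the opposite order in its brightest probe set. GSS, glutathione synthetase, differed by -0.95 between mutant and wild-type and PGD, a NADPH-producing enzyme, by -0.98. GCLC, the catalytic subunit of the first step, was lowest with mutant JMJD3 (10.17, against 10.67 with wild-type JMJD3 and 11.06 in control), though its probe set 202922_at put mutant 0.14 over wild-type. CBS, the first enzyme of transsulfuration, exceeded control 2.38-fold in the mutant array (1.25, and 0.96 when an offset replaced the floor). CTH, which acts next in that pathway, exceeded control 1.99-fold in the wild-type array.

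Of the 16 measured guards that act without glutathione, 4 were higher and 12 lower with mutant than with wild-type JMJD3, around a median of -0.265 that was -0.04 without shared probe sets. Over all measured genes 40.5% were higher and 49.7% lower, and 6.2% were 2-fold higher and 2.61% 2-fold lower. GCH1, which starts the synthesis of the antioxidant tetrahydrobiopterin, was the 1 guard past 2-fold. Its only probe set, 204224_s_at, has shared probes. It read 8.23 with mutant JMJD3, 6.92 with wild-type JMJD3 and 7.31 in control, so mutant exceeded wild-type 2.48-fold. SPR, which acts later in the same pathway, differed by -0.87. The lowest mutant minus wild-type difference among these 16 genes was the -0.87 of SPR, beside -1.78 for the shared AIFM2 probe set.

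In the list of membrane lipid supply and peroxidation ACSL4 was accompanied by ALOX5, the 5-lipoxygenase. At 204446_s_at ALOX5 read 8.54 with mutant JMJD3, 6.84 with wild-type JMJD3 and 5.41 in control, which is at least 8.34-fold higher with mutant and at least 2.57-fold higher with wild-type JMJD3. Its other 3 probe sets were under the floor or, at 5.51 with mutant JMJD3 in 214366_s_at, just over it. All ALOX5 differences past 2-fold thus rest on a single probe set with shared probes. Raising the floor to the 60th percentile put the wild-type difference at 0.67, and an offset put it at 0.87. SAT1, a polyamine acetyltransferase, was 2-fold higher with mutant than with wild-type JMJD3 (12.67 and 11.67, beside 11.88 in control). POR, a cytochrome P450 reductase, was 2.01-fold lower (8.06 with mutant JMJD3, 9.07 with wild-type JMJD3 and 8.47 in control). When an offset replaced the floor SAT1 differed by 0.99 and POR by -0.90, both under 2-fold. The other SAT1 probe sets were past 2-fold for mutant against wild-type, by 1.17 at 203455_s_at and 1.21 at 213988_s_at. Against control the mutant array was higher by 0.79 at the brightest SAT1 probe set, 0.91 at 203455_s_at and 1.18 at 213988_s_at. Every SAT1 probe set has shared probes. Over the 12 measured genes, 4 were higher and 7 lower with mutant than with wild-type, around a median of -0.085. Of all measured genes 40.5% were higher and 49.7% lower in that comparison. At brightest probe sets 2 of the 12 were 2-fold higher there, ALOX5 (1.70, or 3.25-fold) and SAT1, and 1 was 2-fold lower, POR. Over all measured genes those shares were 6.2% and 2.61%.

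Beside TFRC, none of the 17 measured genes of iron uptake, storage and export differed by 2-fold at its brightest probe set in any comparison. Over all measured genes 6.2% were 2-fold higher and 2.61% 2-fold lower with mutant than with wild-type JMJD3. The ferritin light chain FTL read 14.06 with mutant JMJD3, 14.34 with wild-type JMJD3 and 14.21 in control. HMOX1, which releases iron from haem, exceeded control 1.51-fold in the mutant array and 1.57-fold in the wild-type array. HFE, which associates with the transferrin receptor, was lower with mutant than with wild-type JMJD3 in all 15 of its probe sets, by 0.73 in the brightest and by 2-fold or more in 5. Among those 5, 206086_x_at and 211327_x_at were under the floor with mutant JMJD3, so their differences are bounds. All HFE probe sets but 235754_at (-0.68) and 1553402_a_at (-0.90, a bound) have shared probes. The list medians were 0.06 for mutant and 0.16 for wild-type JMJD3 against control.

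Of 12 measured transcriptional regulators of these genes 4 passed 2-fold between mutant and wild-type JMJD3, 2 higher and 2 lower with mutant, beside 6.2% higher and 2.61% lower over all measured genes. KEAP1, which targets the antioxidant factor NFE2L2 for degradation, read 8.01 with mutant JMJD3, 9.11 with wild-type JMJD3 and 8.55 in control. BACH1, a repressor of antioxidant genes, read 9.30 with mutant JMJD3, 8.20 with wild-type JMJD3 and 8.68 in control. KEAP1 was thus 2.14-fold lower and BACH1 2.14-fold higher with mutant than with wild-type, each with control in between. SREBF1, a lipogenic transcription factor, was 2.07-fold lower. When an offset replaced the floor these 3 came just under 2-fold, at -0.98 for KEAP1, 0.99 for BACH1 and -0.99 for SREBF1. WWTR1, also called TAZ, was 2.62-fold higher at its brightest probe set and lower at 202134_s_at (-1.49). The list median of 0.375 for mutant against wild-type became -0.12 when each gene was given the median of its probe sets.

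**Figure D4:**
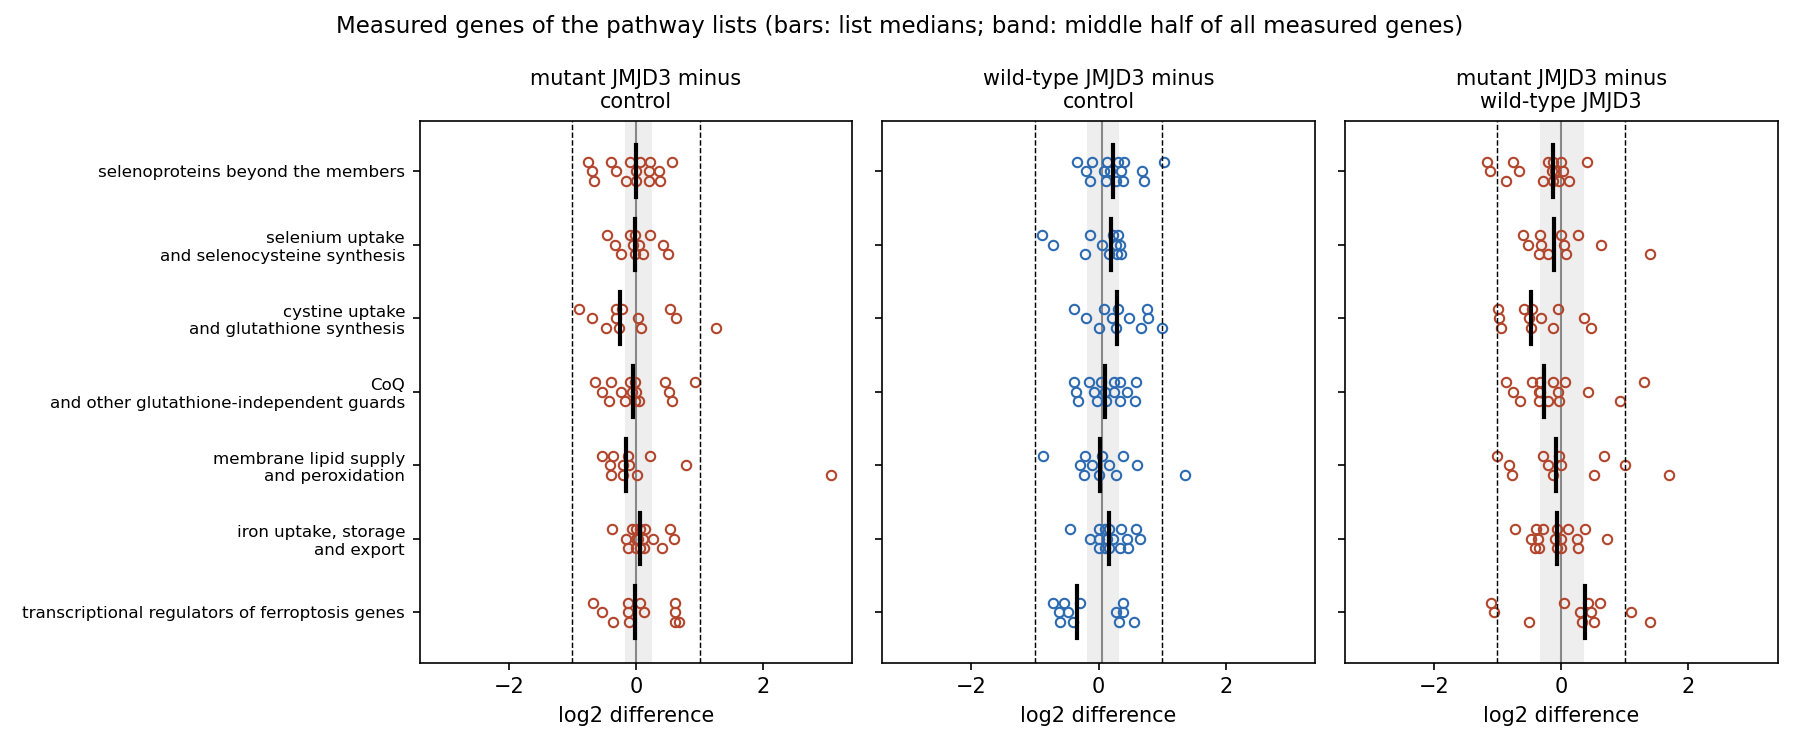
Log2 difference (horizontal axis) of the measured genes of 7 lists (rows, open circles) in mutant JMJD3 minus control, wild-type JMJD3 minus control and mutant minus wild-type JMJD3. Black bars are list medians, the grey band spans the 25th to 75th percentile of all measured genes with their median as a grey line, and dashed lines mark 2-fold. In mutant minus wild-type the cystine and glutathione list has the lowest median (-0.47) and the transcriptional regulators the highest (0.375).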

How the data were processed

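Biotinylated cRNA from total RNA of 3 PANC-1 lines was read on Affymetrix arrays, per the labels' protocols. The deposited values are log2 signals per probe set, from 2.42 to 14.94, and MAS5 is named in the submitters' processing notes. Its settings and the normalization between arrays are not given in the sources used here. The log base was read from the range of the values. The sorted columns differ by at most 0.14.

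Of 54613 probe sets, 41091 have 1 gene symbol in the platform annotation, 1801 have several and 11721 are not listed. Gene identifiers of 41037 matched the RefSeq table (GRCh38.p14), which was used for names. There were 19775 genes. The members and gene lists were chosen with earlier results of these data known. From each list the text names genes among the 4 with the greatest absolute difference in a comparison, beside FTL, the partner of FTH1, chosen after its values were seen. No test was run, since each group is 1 array. In all, 8 alternatives were computed. The calculation was tested on simulated copies of the control array, with known changes added to bright genes. That checks the arithmetic only, and not changes in dim signals or probe sets that disagree. Software was Python 3.11.15 with pandas 2.3.3, numpy 2.4.6 and, for plots, matplotlib 3.10.9.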

Additional observations from a re-analysis of the deposited data

How the results depend on the processing

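The 8 alternatives were quantile normalization, equal array medians, the floor at the 40th or at the 60th percentile, an offset instead of a floor, neither of these, the median over probe sets as the value of a gene, and no shared probe sets. For mutant JMJD3 against control, the members 2-fold higher (2) were 1 with quantile normalization and 1 with the offset, since ACSL4 fell under 2-fold, and 0 with the median over probe sets and 0 without shared probe sets. The 1 member 2-fold lower, AIFM2, was 0 under both of the last settings. For wild-type JMJD3 against control, the 1 member lower, SELENOP, was 0 without shared probe sets and was not measured with the median over probe sets, which called SLC7A11 in its place (-1.16). For mutant against wild-type JMJD3, the members higher (2) were 1 with the median over probe sets, which was SLC7A11 (1.32), and 0 without shared probe sets. The 1 member lower was 0 under both. Without shared probe sets SELENOP, ACSL4 and GPX1 have no value, so those counts come from fewer genes. All measured genes past 2-fold numbered 447 for mutant against control, but 243 with the offset and 293 with the median over probe sets. They numbered 287 for wild-type against control, but 141 and 184 under those settings, and 1130 for mutant against wild-type, but 687 and 727. Among named pathway genes past 2-fold, SEPSECS (-0.39) and WWTR1 (-0.12) turned sign for mutant against wild-type with the median over probe sets, and the cause was not tested. A further 27 alternative values of named genes under 2-fold turned sign, among them GCLC (0.14), SELENOT (0.12) and YAP1 (-0.01) in that comparison and setting. Of 168 alternative values for single members, 144 stayed on their side of 2-fold and did not turn sign, where moves to or from 0 were not counted as turns. A further 13 could not be had, among them those of SELENOP and ACSL4 without shared probe sets. Dim signals limit SELENOP, GPX2 and GPX3, for which bounds or no differences are given.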

Other observations

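Probe sets of 1 gene that differ by 2-fold in opposite directions were uncommon. Of 6149 genes with several measured probe sets, 1218 had at least 1 past 2-fold for mutant against wild-type JMJD3. Such a pair was held by 11 (0.179% of the 6149), among them WWTR1 (1.39 at 202133_at and -1.49 at 202134_s_at). For mutant against control there were 4 of 6101, of which 468 had a probe set past 2-fold. Such a pair needs both probe sets past 2-fold, so weaker disagreement is not counted. SLC7A11 came close to such a pair for mutant against wild-type, with 1.32 at 217678_at and -0.93 at 207528_s_at. SELENOT, a selenoprotein of the endoplasmic reticulum, differed by -0.87 at 217811_at and by 1.11 at 225561_at. YAP1, a transcriptional coactivator related to WWTR1, differed by 0.47 at 224894_at and by -1.09 at 213342_at.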
